A study of Mus musculus with 8 samples.

Results

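The nuclei described here are cycling, early hematopoietic nuclei in which the blood lineage genes named below gave few or no reads. They were picked from 1 deposited table of unique molecular identifier (UMI) counts, in which each UMI stands for 1 captured RNA molecule. A nucleus was taken when it had at least 4 UMIs of Top2a, the topoisomerase that untangles DNA in dividing cells. It could have at most 1 UMI of Hlf, a stem cell transcription factor, at most 3 of Mpo, the myeloid peroxidase, and 0 of the granule genes Elane, Prtn3, Ctsg and Ms4a3 together. At most 1 UMI each was allowed for the lymphoid pair Dntt and Il7r, the erythroid genes Car1, Klf1 and Slc25a21, the platelet genes Itga2b, Vwf and Pf4, and the plasma cell gene Jchain, and 0 for the B cell factor Pax5. In all, 313 of 8708 nuclei met this rule, which is 3.59% (95% exact binomial interval 3.21% to 4.01%). They made up 12.4% of the 2515 nuclei with at least 4 Top2a UMIs. The rule used measured values, so Top2a and the other genes of the rule are not findings here.

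Blood cells descend from stem cells through multipotent progenitors, which divide more often than stem cells and have not yet switched on the genes of 1 lineage. A dividing progenitor copies its DNA in S phase with help from replication genes switched on by E2F factors. It then separates the copies in mitosis with spindle motors and kinetochore proteins, whose genes are switched on later, in G2.

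The marrow was sorted for Lin-Sca1+ckit+ (LSK) cells, a fraction that holds stem cells and multipotent progenitors, and nuclei were profiled by 10x multiome, which reads RNA and open chromatin together. The labels name T58A mice, which carry a point mutation in MYC, and WT littermates, with 2 RNA and 2 ATAC samples per genotype and with each replicate pooled from 2 mice of a genotype. Neither an age nor a treatment is named. The table is named for T58A alone, and its barcodes fall into 4 sets that no label ties to a genotype or replicate, so T58A and WT were not compared and the table counts as 1 sample. No p-value is given, intervals cover counting error only, and the 4 sets are shown side by side without being called replicates.

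The members numbered 145, 15, 84 and 69 in barcode sets 1 to 4, or 4.83%, 2.08%, 3.05% and 3.09% of their nuclei. They had a median of 3666 UMIs without mitochondrially encoded RNA. Mitochondrially encoded RNA took 23.2%, 11.7%, 20.7% and 9.6% of the members' UMIs in sets 1 to 4, so levels are given as counts per 1000000 non-mitochondrial UMIs (CPM). Over the whole table, 36 barcodes occurred in more than 1 set, and 4 members carried such a barcode. A simulated-doublet score marked 8 of the 313 members (2.56%), against 9.26% of all nuclei with at least 4 Top2a UMIs. The score marks the highest 5% of each set by construction.

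Top2a ranged from 4 to 24 UMIs in the members, with a median of 6. There were 87 members at the limit of 4, and 109 nuclei that met every other limit had 3. Of the members, 100 carried the 1 Hlf UMI the rule allows, while 50 nuclei with 2 were left outside by that limit alone. The limits are raw counts, so they select on depth as well as on genes: with every nucleus of sufficient depth thinned to 3000 UMIs, 312 of 4834 nuclei met them (6.45%), and 151 of the 213 members deep enough were among these.

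By genes outside the rule, the label of multipotent progenitors without lineage genes held only in part. At least 3 genes of an early multipotent progenitor list had a UMI in 311 of 313 members and in 97.7% of quiet lineage-low nuclei. At least 3 lymphoid progenitor markers had a UMI in 128 members (40.9%), myeloid progenitor markers in 119 (38%) and megakaryocyte markers in 57 (18.2%). In quiet lineage-low nuclei these shares were 26.7%, 15% and 10.3%. They were 62.9%, 39% and 33.3% in cycling Hlf-positive nuclei and 69.1%, 80% and 7.27% in cycling Mpo-positive nuclei, at unmatched depth. In addition, 70 members (22.4%) carried UMIs of at least 3 genes from a mature cell type list. The erythroid list accounted for 31 of these, the monocyte, macrophage and dendritic list for 18, the plasma cell list for 16, the B cell list for 6, the neutrophil list for 3 and the mast cell list for 2 (some nuclei met more than 1 list). The same held for 19.6% of quiet lineage-low nuclei, 18.1% of cycling Hlf-positive nuclei and 12.7% of cycling Mpo-positive nuclei. The make-up differed, at unmatched depth. The erythroid list was met by 9.9% of the members, 2.95% of quiet, 13.3% of Hlf-positive and 0% of Mpo-positive nuclei. For the monocyte, macrophage and dendritic list these shares were 5.75%, 6.99%, 0.95% and 0%. The 16 members that met the plasma cell list numbered 6, 0, 10 and 0 in barcode sets 1 to 4. The members are therefore called cycling lineage-low nuclei here. Ly6a, which encodes the Sca1 protein used in the sort, had 5.59 CPM and a UMI in 2.24% of the members, whereas Kit, the other sort marker, had 509 CPM.

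Promoter windows of 6 genes show the sequence features of the mitotic and the S phase programs that these nuclei carried. Each runs from 250 bases before to 20 bases after the first start listed by RefSeq on GRCm38.p6, and is written 5′ to 3′ in the direction of the gene. Capitals mark the cell cycle homology motif TTTGAA or TTCGAA, the CCAAT box and the E2F-type motif GCGGGAA, searched on both strands. Top2a, Kif11 and Neil3 are markers given with the rule, Prc1 was the gene most tilted to the G2/M side among genes outside the S phase and G2/M lists with at least 30 counts, Pclaf was tilted to the S side, and Polq was the repair gene with the second largest ratio to quiet nuclei.
Top2a (chr11:99024170-99024439, minus strand): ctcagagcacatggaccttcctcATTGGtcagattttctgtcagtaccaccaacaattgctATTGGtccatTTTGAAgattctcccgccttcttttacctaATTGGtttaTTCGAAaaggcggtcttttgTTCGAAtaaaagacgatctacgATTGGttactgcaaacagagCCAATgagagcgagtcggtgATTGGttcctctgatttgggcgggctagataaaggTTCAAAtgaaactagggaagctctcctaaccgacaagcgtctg
Kif11 (chr19:37376132-37376401, plus strand): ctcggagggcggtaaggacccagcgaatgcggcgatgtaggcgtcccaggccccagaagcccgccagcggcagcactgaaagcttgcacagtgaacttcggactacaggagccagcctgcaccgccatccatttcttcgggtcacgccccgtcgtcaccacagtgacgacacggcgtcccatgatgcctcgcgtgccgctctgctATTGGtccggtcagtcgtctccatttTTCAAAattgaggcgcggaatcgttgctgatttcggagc
Neil3 (chr8:53639046-53639315, minus strand): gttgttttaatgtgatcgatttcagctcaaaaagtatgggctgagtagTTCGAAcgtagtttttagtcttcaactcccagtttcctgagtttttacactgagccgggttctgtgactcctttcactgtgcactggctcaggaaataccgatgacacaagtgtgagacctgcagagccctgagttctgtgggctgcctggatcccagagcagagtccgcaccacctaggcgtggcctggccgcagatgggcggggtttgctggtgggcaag
Prc1 (chr7:80294201-80294470, plus strand): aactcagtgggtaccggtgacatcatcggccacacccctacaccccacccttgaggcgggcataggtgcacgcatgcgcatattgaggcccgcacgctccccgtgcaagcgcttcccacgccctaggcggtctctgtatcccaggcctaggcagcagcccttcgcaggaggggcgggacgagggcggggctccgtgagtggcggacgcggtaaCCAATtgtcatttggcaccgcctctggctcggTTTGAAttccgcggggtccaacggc
Pclaf (chr9:65890073-65890342, plus strand): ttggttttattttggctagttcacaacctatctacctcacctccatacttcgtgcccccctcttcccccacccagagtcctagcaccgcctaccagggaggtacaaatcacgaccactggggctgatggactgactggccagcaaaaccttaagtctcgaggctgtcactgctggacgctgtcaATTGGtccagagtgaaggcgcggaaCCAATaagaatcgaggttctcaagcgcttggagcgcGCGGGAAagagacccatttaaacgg
Polq (chr16:37011536-37011805, plus strand): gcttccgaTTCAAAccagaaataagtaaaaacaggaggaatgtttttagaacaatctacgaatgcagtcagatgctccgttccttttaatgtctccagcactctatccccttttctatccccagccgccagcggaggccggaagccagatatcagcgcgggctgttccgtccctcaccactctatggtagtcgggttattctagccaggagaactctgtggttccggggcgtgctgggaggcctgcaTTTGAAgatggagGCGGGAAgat
The Top2a window held 4 cell cycle homology motifs and 6 CCAAT boxes. Neil3 held 1 cell cycle homology motif, 202 bases before its start. Kif11 had 1 of each, 19 and 45 bases before its start, and Prc1 had 1 of each, 5 and 37 bases before its start. Pclaf held no cell cycle homology motif but 2 CCAAT boxes and 1 E2F-type motif 5 bases before its start. Polq held 2 cell cycle homology motifs, 242 and 3 bases before its start, and 1 E2F-type motif just after it, with no CCAAT box.

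Across gene lists, the motifs differed in how often they occurred. The cell cycle homology motif occurred in the windows of 28 of 48 G2/M genes (58.3%) and 18 of 30 spindle and cytokinesis genes (60%). It occurred in 4 of 29 replication origin and fork genes (13.8%), against 18.3% of all 27025 genes with a window. Kinetochore and centromere genes lay between, with 9 of 29 (31%). Of 6464 genes with a window and at least 50 counts over members and quiet nuclei, 12.5% held the motif, close to the origin and fork genes. The CCAAT box separated the lists less, with 37 of 48 G2/M genes (77.1%), 13 of 26 DNA repair genes (50%) and 11 of 29 origin and fork genes (37.9%). The share was 35.9% over all genes and 37.6% over the 6464 genes. The E2F-type motif occurred in 0 of 48 G2/M genes and 2 of 30 spindle genes (6.67%). It occurred in 5 of 29 kinetochore genes (17.2%), 6 of 29 origin and fork genes (20.7%) and 8 of 26 DNA repair genes (30.8%). The share was 4.17% over all genes and 8.35% over the 6464 genes, with the spindle share in between. The S phase list was left out of this comparison because under 80% of its genes had a window. A match is a description of letters in the window and no evidence that a factor binds there.

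The first comparison set the members against 1287 quiet lineage-low nuclei, which met the same lineage limits and had 0 Top2a UMIs. The members had far more RNA of spindle and kinetochore genes, while 9 of 20 stem cell genes and 9 of 31 immediate early and NF-kB genes were lower. Since Top2a defined both groups, the mitotic genes describe the selection and are not support for it. Quiet nuclei were shallower, with a median of 1691 UMIs. Genes needed 50 counts, summed over members and quiet nuclei, to be measured. Calls required a 1.5-fold ratio of CPM plus 10, with 1 direction shared by all 4 barcode sets. Of 8045 genes measured, 432 were higher in the members (5.37%) and 413 were lower (5.13%), with a median log2 ratio of -0.02 over all genes.

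Neil3, a DNA glycosylase that acts on crosslinks at replication forks, had 416, 352, 446 and 350 CPM in the members of sets 1 to 4, against 27.7, 6.59, 38.1 and 16.5 CPM in quiet nuclei. The groups did not overlap, and the pooled ratio was 14.4-fold (95% exact interval 11.2 to 18.7). Kif11, the motor that pushes spindle poles apart, had 617, 551, 623 and 555 CPM in the members and 58.8, 39.5, 55 and 40.4 CPM in quiet nuclei, an 11.4-fold ratio (9.47 to 13.8). Cep55, which acts in the last step of cytokinesis, had 155, 141, 168 and 123 CPM in the members, against 10.4, 6.59, 12.7 and 7.35 CPM in quiet nuclei. These 3 genes were given as markers with the rule, and all 3 lay far above quiet nuclei in every set.

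Other genes among the 10 with the largest ratios included the motors Kif15, Kif4 and Kif14, the kinetochore scaffold Knl1, the spindle protein Nusap1 and the checkpoint kinase Bub1. Their levels in the members lay between 145 CPM for Kif14 and 543 CPM for Kif15, against 8.37 and 45.4 CPM in quiet nuclei. Knl1 had 500.3 CPM in the members and 51.8 CPM in quiet nuclei. The largest ratio in the condensin and cohesin list was that of Esco2, which acetylates cohesin during replication, with 126 CPM in the members and 5.58 CPM in quiet nuclei.

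Median ratios were larger in the spindle, G2/M and kinetochore lists than in the S phase and the origin and fork lists. Top2a, itself on the G2/M list, chose both groups, so this order describes the selection and is not a finding. All 29 of 29 measured spindle and cytokinesis genes were called higher, with a median log2 ratio of 2.36. In the G2/M list 44 of 46 were higher (median 1.90), in the kinetochore list 27 of 30 (1.58), and in the repair list 18 of 23 (1.12), where Polq, a repair polymerase, had 227 against 29.9 CPM. The S phase list had 27 of 42 higher (0.85), and its 2 largest ratios were those of Brip1, a repair helicase with 262 against 50.6 CPM, and E2f8, a repressor of E2F targets with 114 against 20.7 CPM. Of the origin and fork genes 12 of 30 were higher (0.57), led by Ticrr and the kinase Cdc7, and of the condensin and cohesin genes 8 of 17 (0.57), while the helicase gene Mcm2 had 39.1 CPM in the members and 34.7 CPM in quiet nuclei.

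**Figure D1:**
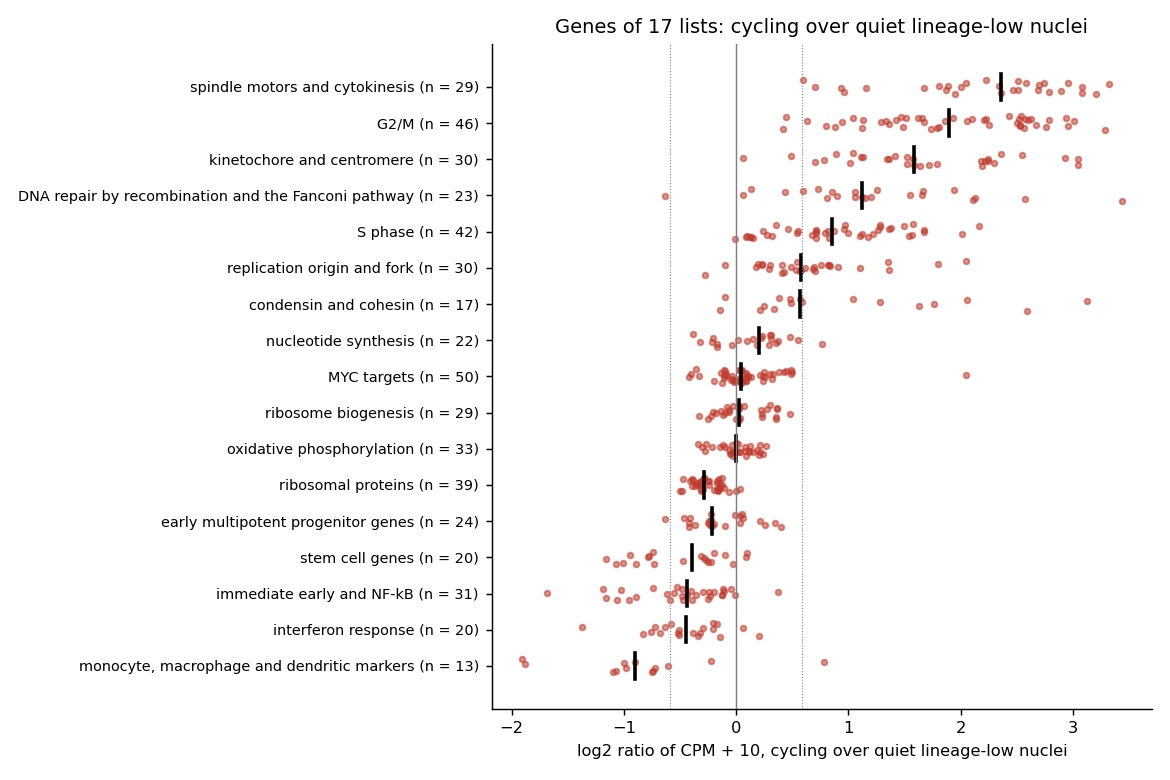
Each point is 1 measured gene, placed by its log2 ratio of CPM plus 10, cycling over quiet lineage-low nuclei. Black bars are medians and dotted lines mark 1.5-fold. The spindle list has a median of 2.36 and the MYC target list a median of 0.05.

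Few genes tied to growth were called. Of all measured genes 5.37% were called higher and 5.13% lower, so lists of this size would hold few calls at that share too. In the MYC target list 1 of 50 measured genes was called higher, the centriole kinase Plk4, and the median log2 ratio was 0.05. No gene was called in either direction among 29 ribosome biogenesis genes (median 0.02), 33 oxidative phosphorylation genes (0.001) or 39 ribosomal protein genes (-0.29). Only 1 of the 39 ribosomal protein genes had a log2 ratio above 0, with medians of -0.25, -0.66, -0.40 and -0.17 in sets 1 to 4. They summed to 11360 CPM in the members and 13680 CPM in quiet nuclei. Myc itself had 72.8, 35.2, 49.6 and 73.9 CPM in the members of sets 1 to 4 and 66.6 CPM over all quiet nuclei, a ratio of 0.96 whose interval ran from 0.725 to 1.26. Among the partners of MYC, Mxd4, an antagonist linked to cell cycle exit, was called lower, with 35.1 CPM in the members and 68.2 CPM in quiet nuclei.

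Stem cell genes were called lower for 9 of 20 measured members of the list and higher for 0 (median -0.39). Fgd5, a marker of stem cells in mice, had 12 CPM in the members and 39.1 CPM in quiet nuclei. Mecom, a transcription factor of stem cells, was not called, with 916 CPM in the members and 1104 CPM in quiet nuclei.

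The immediate early and NF-kB list was lower for 9 of 31 genes (median -0.43), with Egr3 at 18.4 against 54.6 CPM and the chemokine Ccl3 at 4.79 against 37.5 CPM. The interferon list was lower for 4 of 20 genes (-0.45), among them the RNA sensor gene Ddx58 with 28.7 against 55.4 CPM. Among the 10 lowest genes were the transcription factors Tox and Rora and the histone demethylase gene Kdm7a. Tox had 113 CPM in the members and 347 CPM in quiet nuclei, Rora 92.6 and 279 CPM, and Kdm7a 37.5 and 141 CPM. In nuclei of 4000 to 12000 UMIs on both sides, where depth is closer, Tox, Rora and Kdm7a had log2 ratios of -1.99, -1.31 and -1.89, while Magi2, also among the 10 lowest, turned to 0.29. The number of lower calls fell there to 147.

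The 2 lowest genes, Cadm1 and the MHC class II gene H2-Eb1, belong to the monocyte, macrophage and dendritic list, of which 9 of 13 measured genes were lower in the members. Cadm1 had 6.83, 0, 16.5 and 87.5 CPM in the members, against 83, 231, 108 and 310 CPM in quiet nuclei. The list summed to 553 CPM in the members and 1260 CPM in quiet nuclei. Without nuclei that carried 3 or more genes of a mature list, H2-Eb1 had 3.15 CPM in the members and 3.50 CPM in quiet nuclei. Cadm1 had 0 and 4.99 CPM there. Both genes count toward the mature lists, so leaving out such nuclei lowers them by construction. Irf8 was not called over all nuclei, but had 133 CPM in the members and 53.4 CPM in quiet nuclei once those nuclei were left out, a log2 ratio of 1.18 that was called higher.

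Some genes outside division were higher in the members. Bcl2, the survival protein, had 785, 1020, 562 and 572 CPM in the members, against 421, 435, 344 and 433 CPM in quiet nuclei, a 1.71-fold ratio (1.55 to 1.87). Dnmt1, which copies DNA methylation onto new strands, had 216 CPM in the members and 138 CPM in quiet nuclei, while Tet1, a gene of DNA demethylation, had 68.6 and 108 CPM.

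The second comparison kept division on both sides and set the members against 105 cycling Hlf-positive nuclei, with at least 4 UMIs of both Top2a and Hlf and the other limits kept. Cell cycle genes were close to equal in pooled medians, while 6 of 9 myeloid progenitor markers were higher and 5 of 15 stem cell genes lower in the members. Top2a chose both groups, and Hlf, a stem cell factor, divided them. The near-equal cycle genes and the lower stem cell genes therefore describe the selection and are not support for it. Of 6042 genes measured, 118 were higher in the members (1.95%) and 155 lower (2.57%). The Hlf-positive nuclei had a median of 6438 UMIs, and they numbered 21, 6, 26 and 52 in sets 1 to 4. Leaving out set 4, which also eases the rule of 1 shared direction, moved the higher calls to 193.

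The median log2 ratio was 0.11 in the G2/M list, 0.07 in the spindle list and 0.05 in the S phase list, beside -0.05 over all genes. By set, the S phase median was 0.17, 0.59, 0.33 and 0.08 in sets 1 to 4, each above the pooled value. Of the 41 measured S phase genes 5 were called higher and 0 lower, beside 1.95% and 2.57% of all genes. Among the 5 was the replication licensing factor Cdc6, with 54.3 CPM in the members and 22.5 CPM in Hlf-positive nuclei. Neil3 had 401 CPM in the members and 447 CPM in Hlf-positive nuclei, and Kif11 had 596 and 566 CPM.

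Irf8, the transcription factor that directs monocyte and dendritic fates, had the largest ratio. It had 223, 246, 251 and 260 CPM in the members, against 40.9, 0, 6.37 and 4.51 CPM in Hlf-positive nuclei, a 26.3-fold ratio (12.6 to 66). Every set of members was above every set of Hlf-positive nuclei. Apba1 followed with 158 against 6.61 CPM, and Atp8b4 with 514 against 127 CPM. In the myeloid progenitor list 6 of 9 measured genes were higher (median 1.31), and in the monocyte, macrophage and dendritic list 4 of 5 (2.70), with summed levels of 553 CPM in the members and 37 CPM in Hlf-positive nuclei.

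Part of this lay in few nuclei. Without nuclei carrying 3 or more genes of a mature list, 243 members and 86 Hlf-positive nuclei remained, and Irf8 had 133 CPM in the members and 5.01 CPM in Hlf-positive nuclei, with a log2 ratio of 3.26. Cd74, the MHC class II chaperone, had 105 CPM over all members but 5.25 CPM without those nuclei, and the B cell factor Ebf1 had 63.8 and 10.5 CPM. The log2 ratio of Cst3 was 1.31 over all nuclei and 0.03 without them, and that of Psap 1.08 and 0.40. Cd74 and Ebf1 count toward the mature lists, so leaving out those nuclei lowers them by construction. Irf8, Cst3 and Psap are not on these lists. Igkc, an immunoglobulin light chain, was also called higher, with 226 against 112 CPM. By set it had 248, 35.2, 443.7 and 27.4 CPM in the members, against 204.7, 17.2, 369.6 and 13.5 CPM in Hlf-positive nuclei, of which 52 of 105 were in set 4, where Igkc was low. It had a UMI in 51.4% of the members, and its ratio to quiet nuclei changed sign with depth.

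The lowest genes against Hlf-positive nuclei included Klf12, Gcnt2, Gimap6, Eya2, Itsn1, Mecom, Myct1, Calcrl and Mir99ahg. Mecom had 885, 1196, 868 and 936 CPM in the members, against 2006, 1630, 1491 and 1878 CPM in Hlf-positive nuclei, a ratio of 0.51 (0.47 to 0.55). All sets of the members lay below all sets of Hlf-positive nuclei. In the stem cell list 5 of 15 genes were lower and 0 higher (median -0.43), including Gimap6 with 97.4 against 210 CPM. Adgrl4 and Ikzf2 were the only genes of the early multipotent list called lower, out of 24 measured.

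The third comparison set the members against 55 cycling Mpo-positive nuclei, with at least 4 UMIs of both Top2a and Mpo and the other limits kept. These are dividing nuclei that carry Mpo RNA but none of the granule protease genes. The members had more RNA of Mecom, Gata2 and Med12l, among others, and less of Cd34 and Satb1. Top2a chose both groups and Mpo divided them, so genes that vary with Mpo describe the selection and are not support for it. Of 5237 genes measured, 203 were higher in the members (3.88%) and 136 lower (2.6%). The Mpo-positive nuclei numbered 30, 4, 7 and 14 in sets 1 to 4, so the values of sets 2 and 3 rest on few nuclei. Leaving out set 2, which also eases the rule of 1 shared direction, moved the counts to 340 higher and 218 lower.

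Mecom had 885, 1196, 868 and 936 CPM in the members, against 307, 645, 155 and 377 CPM in Mpo-positive nuclei, a 2.67-fold ratio (2.18 to 3.29). Every set of the members was above every set of Mpo-positive nuclei. In the stem cell list 4 of 12 measured genes were higher and 0 lower (median 0.94). Gata2, a transcription factor of stem, mast and megakaryocyte-erythroid cells, had 137, 129, 105 and 107 CPM in the members and 33.2, 32.2, 0 and 104 CPM in Mpo-positive nuclei. Other genes among the 10 highest included Cdk14, Adgrl2, Car2, Med12l, Plxdc2, Plxnc1, Tbxas1 and Psap, and Med12l had 449 against 119 CPM. Adgrl2, Plxnc1 and Psap were not called without nuclei carrying 3 or more genes of a mature list, where Psap had 124 CPM in the members and 88.4 CPM in Mpo-positive nuclei. Of 16 listed megakaryocyte markers 4 were measured and 3 of these were higher, while the list summed to 881 CPM in the members and 829 CPM in Mpo-positive nuclei in set 4. Of 22 immediate early and NF-kB genes 5 were higher, led by Nr4a1 and Dusp1.

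The monocyte, macrophage and dendritic list was higher for 4 of 5 measured genes against Mpo-positive nuclei too, with 553 CPM in sum in the members and 89.2 CPM in Mpo-positive nuclei. Without nuclei carrying 3 or more genes of a mature list, Cd74 had 5.25 CPM in the members and 3.84 CPM in Mpo-positive nuclei. Cd74 is itself on such a list, so its level falls by construction without those nuclei. Irf8, not called in either setting, had 243 against 178 CPM over all nuclei and 133 against 188 CPM without them. The number of higher calls was 123 there, against 203 over all nuclei.

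On the lower side, Cd34, a sialomucin of progenitors, had 241, 188, 168 and 170 CPM in the members, against 407, 387, 666 and 235 CPM in Mpo-positive nuclei. Satb1, a chromatin organizer of lymphoid-primed progenitors, had 439, 633, 342 and 517 CPM in the members and 731, 935, 776 and 847 CPM in Mpo-positive nuclei. The lowest genes by ratio were Fndc3b (109 against 337 CPM), Rab44 (111 against 330 CPM) and Emb (206 against 538 CPM). The nucleotide synthesis list was lower for 3 of 17 genes (median -0.28), with the purine genes Paics and Gmps at the front. Rab44 and Gmps were not called without nuclei carrying 3 or more genes of a mature list. Their log2 ratios were -1.21 and -0.68 there. In the MYC target list 1 of 39 genes was lower (Hspe1), a share like the 2.6% of all measured genes. Flt3 and Kit were not called, with 418 and 509 CPM in the members and 476 and 532 CPM in Mpo-positive nuclei.

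**Figure D2:**
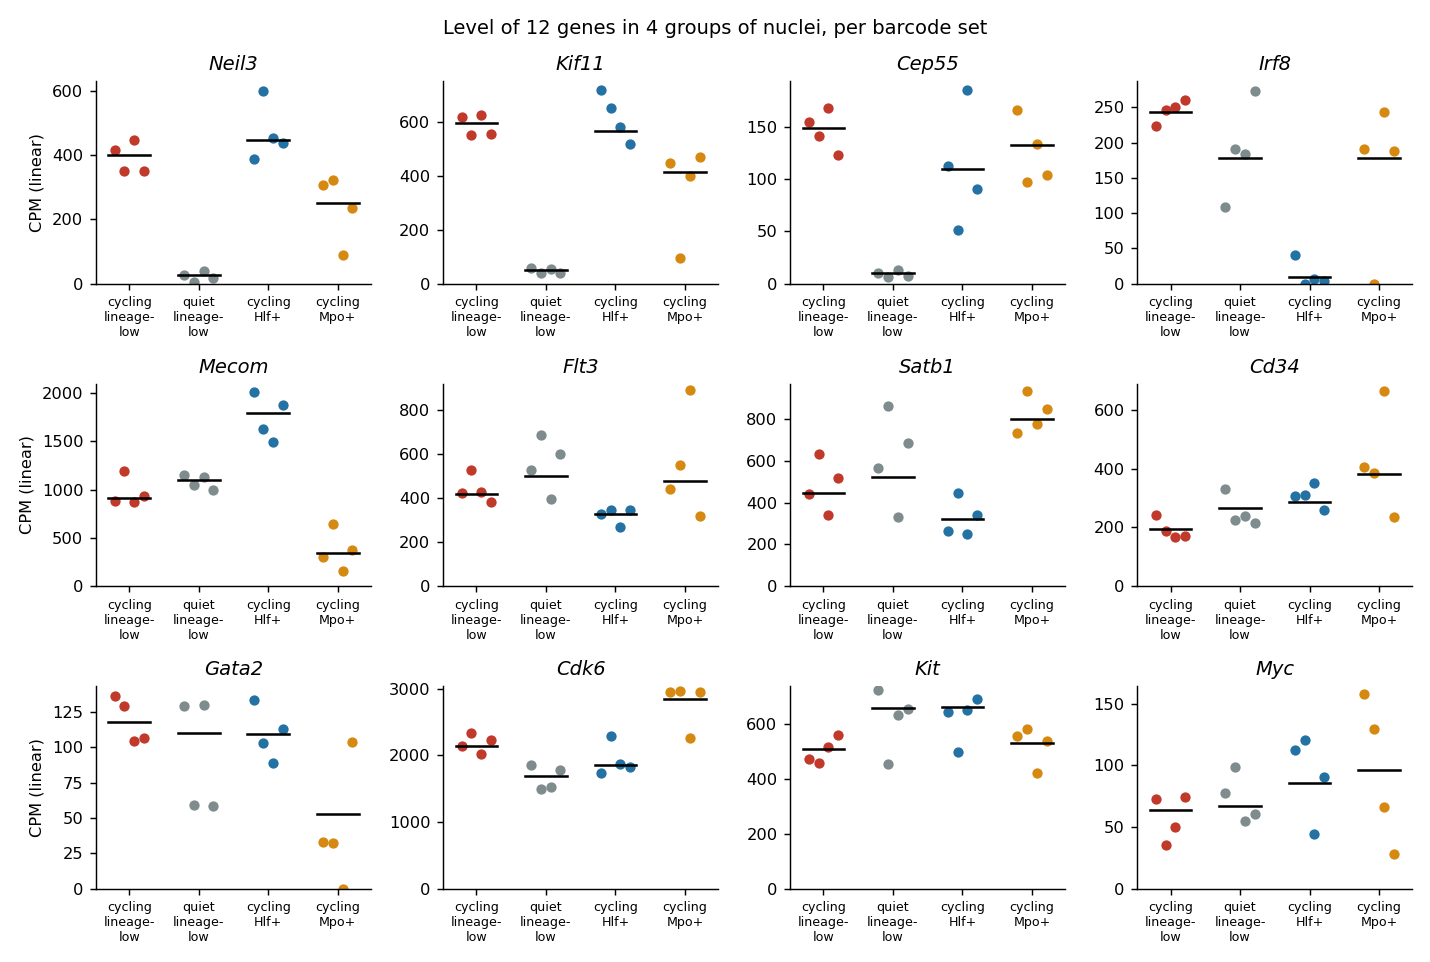
Points are the 4 barcode sets, from set 1 at the left, and black lines are the pooled level in CPM. Mecom runs from 868 to 1196 CPM in the cycling lineage-low nuclei, below every set of the cycling Hlf-positive nuclei. Irf8 runs from 223 to 260 CPM there, above every set of the Hlf-positive nuclei.

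Over the 3 comparisons the members held a middle place in pooled CPM for Mecom and Cdk6. Mecom had 916 CPM in the members, against 1795 CPM in Hlf-positive nuclei, 1104 CPM in quiet nuclei and 344 CPM in Mpo-positive nuclei. Cdk6, a G1 kinase, had 2147 CPM in the members, against 2851 CPM in Mpo-positive nuclei, 1856 CPM in Hlf-positive nuclei and 1691 CPM in quiet nuclei. For Mecom, all sets of Hlf-positive nuclei lay above and all sets of Mpo-positive nuclei below the rest, while the members and quiet nuclei overlapped. For Cdk6 every pair of neighbours overlapped over the barcode sets. The 3 comparisons share the members, so their values are not independent of each other. Top2a, Hlf and Mpo set the groups, so the place of a stem cell gene such as Mecom describes the selection.

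The members differed among themselves in stage of the cycle. At 3000 UMIs per nucleus, which left 213 members and dropped 100, S phase genes summed to 1 to 43 UMIs with a median of 17. G2/M genes without Top2a summed to 3 to 73 UMIs with a median of 32, against a median of 7 for each sum in the 185 quiet nuclei deep enough. This depth dropped 1102 quiet nuclei. The 185 left numbered 19, 32, 43 and 91 in sets 1 to 4, against 556, 40, 513 and 178 of all quiet nuclei. At least 10 different G2/M genes had a UMI in 93.9% of the 213 members and in 10.8% of the 185 quiet nuclei. The sums ran against each other over the members, with a Pearson r of -0.58 and a Spearman rho of -0.60 over 213 nuclei of 1 sample. Both sums come out of the same 3000 UMIs of each nucleus.

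**Figure D3:**
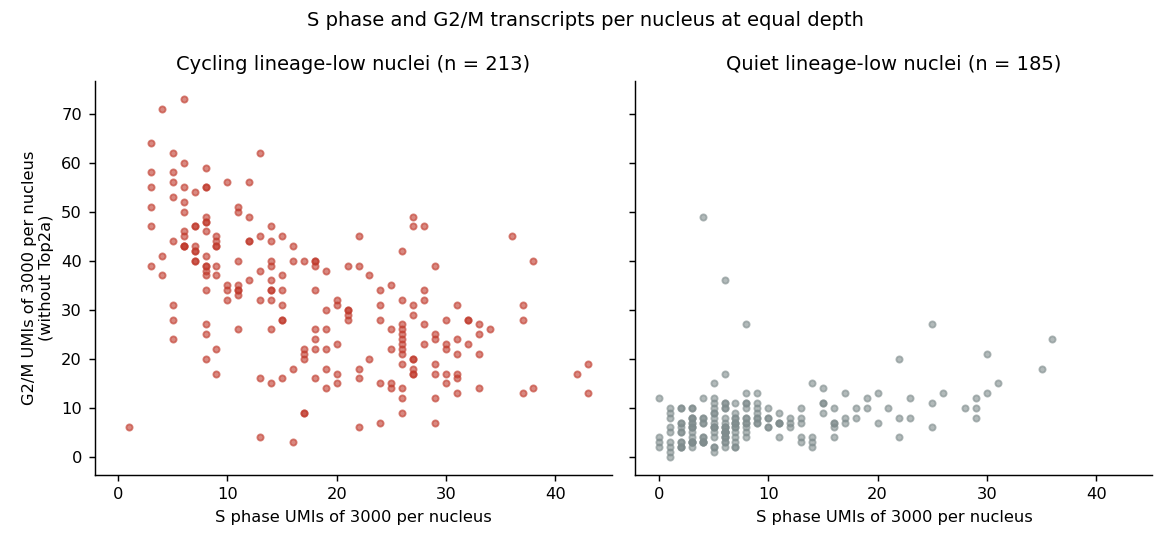
Each point is 1 nucleus thinned to 3000 UMIs, with the UMIs of the S phase list on the x axis and of the G2/M list without Top2a on the y axis. The 213 cycling lineage-low nuclei spread along a falling band, while the 185 quiet nuclei gather at low values with medians of 7.

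The third of members with the highest ratio of S phase to G2/M UMIs was set beside the third with the lowest, at 71 nuclei each and with 71 in between. The genes of both lists were left out. On the S side the largest ratios were those of Hat1, a histone acetyltransferase for new histones (225 against 23.5 CPM), the PCNA partner Pclaf (178 against 23.5 CPM) and the single-strand binding subunit Rpa1 (155 against 23.5 CPM). The polymerase genes Pole and Pola2 and the fork protein Wdhd1 were also among the 15 highest. The G2/M side was led by Prc1, which bundles the central spindle (42.3 against 427 CPM), and by Racgap1 of the same structure (28.2 against 221 CPM). Gata2 was on the G2/M side too, with 32.9 CPM on the S side and 192 CPM on the G2/M side, from 7 and 41 UMIs.

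MYC targets were tilted by stage among the members. Their median log2 ratio, S side over G2/M side, was 0.57 over 18 measured genes, of which 9 were past 1.5-fold up and 0 down, beside a median of 0.04 over all 3102 genes, of which 448 were past it up and 285 down. Ribosome biogenesis genes had a median of 0.41 over 11 genes, while ribosomal protein genes had 0.08 over 38 genes, near that of all genes. MYC targets tied to the cycle but on neither the S phase nor the G2/M list were not left out. These lists were read after the nuclei had been split, and no test is given.

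Lineage-associated genes divided the members in another way. A UMI of Mecom was found in 70.4% of the 213 members, of Flt3 in 50.7%, of Satb1 in 49.8%, of Cd34 in 35.7%, of Irf8 in 23.9% and of Gata2 in 23%. A floor for such shares was read from 45 nuclei with at least 20 Jchain UMIs, taken as plasma cell nuclei that should lack these genes. There the shares were 22.2%, 15.6%, 15.6%, 2.22%, 6.67% and 0% at the same depth. Whether these UMIs came from free RNA or from doublets was not tested, and 24.4% of the 45 nuclei had a Top2a UMI. A count of 0 in 45 nuclei allows up to 6.67% (3 counts), and its exact interval reaches 7.87%. Median depth before thinning was 3666 UMIs in the members and 2716 UMIs in the plasma cell nuclei. Each of the 6 shares was above its floor in the members.

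Mecom and Irf8 rarely met in 1 nucleus. Irf8 was found in 13 of 150 members with a Mecom UMI (8.67%, exact binomial interval 4.7% to 14.4%) and in 38 of 63 without one (60.3%, 47.2% to 72.4%). In plasma cell nuclei the share was 6.67%. Meis1, a stem cell factor, was found in 96% of members with Mecom and 65.1% of those without, and Adgrl4 in 91.3% and 49.2%. Mecom UMIs ran from 0 to 19 with every value up to 15 present. There were 33 members at 1 and 34 at 2, so nuclei near the split are many. Without the members carrying 3 or more genes of a mature list, Irf8 was found in 10 of 123 nuclei with Mecom (8.13%) and 24 of 42 without (57.1%).

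With the 117 members that had at least 2 Mecom UMIs set beside the 63 with 0, the Mecom side had more Trpc6 (322 against 58.2 CPM), Muc13 (365 against 84.7 CPM) and Adgrl4 (1949 against 497 CPM). It had less Irf8 (8.55 against 720 CPM), Apba1 (2.85 against 429 CPM), Cd74 (2.85 against 291 CPM) and Plbd1 (2.85 against 217 CPM). Over all 313 members, 126 of 131 Cd74 UMIs and 76 of 79 Plbd1 UMIs were in the 70 nuclei with 3 or more genes of a mature list. These nuclei also held 178 of 305 Irf8 UMIs. Cd74 and Plbd1 are on such a list and help define these nuclei, while Irf8 is not. The lists of division genes were near 0 between the 117 and the 63 members, with medians of -0.08 for S phase and -0.15 for G2/M genes. The stem cell list had a median of 1.13 over 9 genes and the myeloid progenitor list -2.25 over 8.

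Flt3, the receptor that marks lymphoid-primed progenitors, went with Satb1 and away from Gata2. Satb1 was found in 71.3% of the 108 members with a Flt3 UMI and in 27.6% of the 105 without, and Irf8 in 34.3% and 13.3%. Gata2 was found in 9.26% of members with Flt3 and 37.1% of those without. Kit was found in 74.1% and 72.4%, and Mecom in 66.7% and 74.3%, shares whose intervals overlapped.

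**Figure D4:**
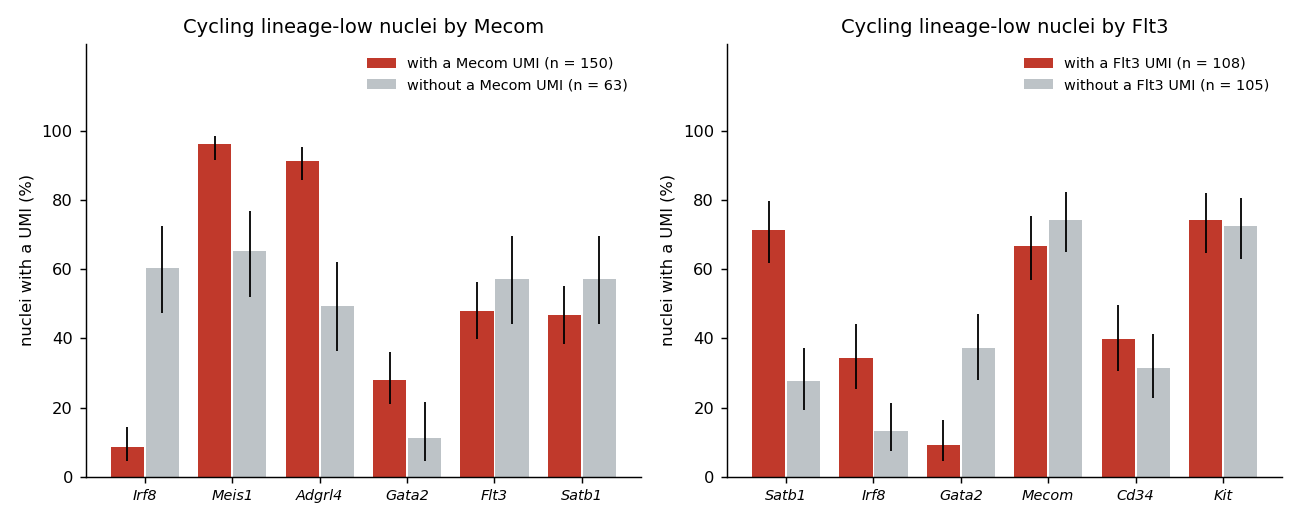
Bars give the percent of cycling lineage-low nuclei with a UMI of each gene at 3000 UMIs, for nuclei with (red) and without (grey) a UMI of Mecom at the left or Flt3 at the right. Error bars are exact 95% binomial intervals. Irf8 stands at 8.67% with Mecom and 60.3% without, and Satb1 at 71.3% with Flt3 and 27.6% without.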

How the data were processed

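The authors deposited 1 table of UMI counts, not normalized, for 32285 genes and 8708 nuclei. Per the submitters' processing notes, Cell Ranger ARC, Seurat and Signac were used with build mm10. Their versions, the annotation and any filter on nuclei are not given in the sources used here. ATAC samples were not used here, and 0 columns of per-sample values were left unused.

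All nuclei were kept. Counts were summed per group and barcode set with Python 3.11.15, NumPy 2.4.6, SciPy 1.17.1, pandas 2.3.3 and scikit-learn 1.9.0, divided by non-mitochondrial UMIs, and compared as CPM plus 10. No count model was fitted, since the table is 1 sample; the tests planned for T58A against WT were not run. The comparison was tested on simulated data. Thinning drew 3000 UMIs per nucleus. Doublets were scored against simulated pairs, and the highest 5% per set were marked for an alternative only.

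Genes named are the 10 highest and 10 lowest calls with at least 200 counts, the 2 largest calls per list, MYC partners and fixed progenitor genes; genes named within splits of the members, and Mcm2, were chosen after their values were seen. The members and lists were chosen with earlier results of these data known. Some genes that these rules name are not reported here.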

Additional observations from a re-analysis of the deposited data

How the results depend on the processing

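Against quiet nuclei, 432 genes were higher and 413 lower. These counts moved past 1.5 times to 241 and 137 with at least 200 counts, to 215 and 92 at 2-fold, and the lower calls to 633 with 1 added to CPM and to 147 in nuclei of 4000 to 12000 UMIs. Against Hlf-positive nuclei, the 118 higher and 155 lower calls moved to 255 and 259 with a minimum of 1 count, 29 and 50 with 200 counts, 37 and 24 at 2-fold, and to 245 higher with the mean of the 4 sets. Against Mpo-positive nuclei, the 203 and 136 calls moved to 550 and 223 with a minimum of 1 count, 35 and 36 with 200 counts, and 78 and 13 at 2-fold. Fewer genes can pass a stricter minimum or fold by construction, and a minimum of 1 count can only add calls. For the others the cause was not tested. Without nuclei carrying 3 or more genes of a mature list, an alternative chosen after seeing the data, the higher calls against Mpo-positive nuclei were 123, of which 82 were among the 203. Leaving out each barcode set in turn gave 405 to 466 higher and 429 to 465 lower against quiet nuclei, 123 to 193 and 175 to 194 against Hlf-positive nuclei, and 212 to 340 and 154 to 218 against Mpo-positive nuclei. The 193 came without set 4, and the 340 and 218 without set 2. Leaving out a set eases the rule of 1 shared direction. Every such count against Hlf-positive and Mpo-positive nuclei was above the main one. The share of members was 4.85% at a Top2a threshold of 3, 2.03% at 6 and 6.45% with limits at 3000 UMIs. At 2000 UMIs per nucleus the shares with a UMI were 62.5% for Mecom, 40% for Flt3, 17.8% for Irf8, 41.5% for Satb1 and 28.4% for Cd34. Of the results for single genes and lists, 5 reversed. In nuclei of 4000 to 12000 UMIs the log2 ratio to quiet nuclei was 0.95 for Igkc and 0.29 for Magi2, and Ebf1 stood at -0.0498 against Mpo-positive nuclei. The median of the endothelial and stromal list against quiet nuclei was -1.76 over 5 genes, but 0.0038 with at least 200 counts, and between -2.24 and 0.18 with 1 barcode set left out (0.18 without set 4). No paired analysis was possible because no label ties the barcode sets to samples, so the replicate numbers could not be used, and T58A against WT was not run. Shallow depth limits the lower genes: 100 of 313 members had under 3000 UMIs, and barcode set 2 held 15.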
